A study of Mus musculus with 7 samples.

Results

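The regions described here are peaks listed for the transcription factor CEBPB in mouse dermal fibroblasts after thapsigargin. They were absent from the list of untreated cells and lay in DNA that was methylated in untreated cells. They are peaks of the treated CEBPB list, outside the mitochondrial chromosome, that shared no base with an untreated CEBPB peak or with an ATF4 peak and whose CpG methylation averaged 50% or more. The rule gave 3424 of the 7861 treated CEBPB peaks (43.6%, Wilson 95% interval 42.5% to 44.7%). Of the 5955 peaks that overlapped neither other list, 57.5% were members, 1240 lay below 50% and 1291 held no measured CpG. The other treated peaks were 1536 that overlapped an untreated CEBPB peak, 360 that overlapped an ATF4 peak and no untreated CEBPB peak, and 10 on the mitochondrial chromosome. Peak overlap and methylation of the peak chose the members, so these values describe the choice and are no finding.

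The cells were primary dermal fibroblasts of female FVB/N mice, kept for 8 days in culture, and no genetic change was labelled. They were either untreated or given thapsigargin for 3 h. CEBPB immunoprecipitation and RNA had 1 library in each state, ATF4 immunoprecipitation had 1 library of treated cells, and 2 bisulfite libraries of untreated cells were held as 1 pooled percentage per cytosine. With 1 library per state, no difference between treated and untreated cells could be tested, and all intervals below cover counting error over peaks or genes only.

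The 10 fibroblast marker genes were all expressed in the untreated cells, at 13.9 to 6473 FPKM (RNA fragments per kb of a transcript's length and per unit of library depth). Macrophage markers were also present, 5 of 5 at 14.3 to 880 FPKM, as were muscle markers (3 of 3, 3.499 to 1124 FPKM), melanocyte and Schwann cell markers (4 of 4, 1.76 to 23.4 FPKM), keratinocyte markers (5 of 5, 2.79 to 7.17 FPKM) and 1 of 3 adipocyte markers at 12.8 FPKM, while all 3 endothelial markers stood below 1 FPKM. The part of other cell types in the peak lists was not tested. Peak scores are the authors' own, on a scale not given in the sources used here. They began at 2.03 in the treated CEBPB list and at 50.03 in the untreated list, and the median peak was 172 bp wide in the treated list and 464 bp in the untreated list. The lists were thus not cut alike, and a peak absent from the untreated list is not shown to be unbound there.

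Thapsigargin empties the calcium store of the endoplasmic reticulum (ER) by inhibiting its pump, which disturbs protein folding and turns on the unfolded protein response and the translation of ATF4. CEBPB is a basic leucine zipper (bZIP) factor of fibroblasts, fat, liver and immune cells that binds DNA as a dimer. Its homodimers favour palindromes made of a pair of matching arms, such as TTGCGCAA, and its heterodimers with ATF4 or with other ATF family members favour composite sites such as TGATGCAA, in which each partner contributes an arm. CpG methylation in a binding site weakens many bZIP factors, among them those that bind the cyclic AMP response element TGACGTCA, whereas C/EBP factors are known to tolerate it in their palindrome. The study asked which methylated sequences CEBPB and its heterodimer with ATF4 bind and whether such sites are used in cells.

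Sequences of members show the kinds of site found, each as 81 bases of the mm9 reference with the feature in capitals. The first group holds the composite 8-mer TGATGCAA, or its complement TTGCATCA, in the member with the highest score (chr15:62401124-62401204) and in members 334.7 kb from the Rnd3 start (chr2:50669720-50669800), in an intron of Sel1l (chr12:93084011-93084091), upstream of Ero1l (chr14:45940894-45940974) and in an intron of Jagn1 (chr6:113394465-113394545).
Highest score: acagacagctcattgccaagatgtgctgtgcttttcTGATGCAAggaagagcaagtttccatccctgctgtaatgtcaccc
Rnd3 distal: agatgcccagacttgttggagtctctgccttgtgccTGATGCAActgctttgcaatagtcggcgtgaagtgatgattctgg
Sel1l: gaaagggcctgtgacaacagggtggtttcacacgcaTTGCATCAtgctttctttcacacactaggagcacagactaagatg
Ero1l: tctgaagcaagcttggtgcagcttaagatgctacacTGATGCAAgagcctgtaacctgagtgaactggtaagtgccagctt
Jagn1: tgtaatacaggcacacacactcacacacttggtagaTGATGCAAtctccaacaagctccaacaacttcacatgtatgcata

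The second group holds C/EBP palindromes. TTGCGCAA, whose centre is a CpG, is shown in its 3 members with the highest scores, intergenic near Tcerg1l (chr7:145615671-145615751) and Eef1a1 (chr9:78359692-78359772) and in an intron of Ccdc109a (chr10:58990717-58990797). The version without a CpG, TTGCACAA, is shown on its other strand as TTGTGCAA, 20.6 kb from an Arap2 start (chr5:63178123-63178203) and upstream of Tbc1d1 (chr5:64544675-64544755).
Tcerg1l distal: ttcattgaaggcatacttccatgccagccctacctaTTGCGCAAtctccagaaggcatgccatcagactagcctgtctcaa
Eef1a1 distal: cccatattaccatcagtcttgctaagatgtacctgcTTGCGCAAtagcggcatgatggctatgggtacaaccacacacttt
Ccdc109a: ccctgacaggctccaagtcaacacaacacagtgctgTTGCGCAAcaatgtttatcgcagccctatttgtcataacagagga
Arap2 distal: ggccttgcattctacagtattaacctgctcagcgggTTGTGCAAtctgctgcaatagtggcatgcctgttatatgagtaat
Tbc1d1: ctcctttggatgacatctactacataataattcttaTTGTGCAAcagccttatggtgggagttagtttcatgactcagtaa

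The third group shows rarer kinds. CGATGCAA, which the study's title points to as a methylated site of the CEBPB and ATF4 pair, is shown in its member with the highest score, 196.2 kb from Zfhx3 (chr8:111042180-111042260), and TGACGTCA in an intron of Spnb2 (chr11:30143390-30143470). A run in which purines and pyrimidines alternate for 20 bp or more is shown in an intron of Nqo1 (chr8:109922088-109922168), with TGCA and CG inside the run. The last line is the middle of the member with the second highest score, in an intron of Atxn1 (chr13:45879214-45879294), which held none of the features searched.
Zfhx3 distal: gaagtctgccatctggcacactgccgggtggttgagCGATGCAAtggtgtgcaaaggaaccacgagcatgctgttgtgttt
Spnb2: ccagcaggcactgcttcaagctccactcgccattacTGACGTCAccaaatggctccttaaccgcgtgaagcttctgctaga
Nqo1: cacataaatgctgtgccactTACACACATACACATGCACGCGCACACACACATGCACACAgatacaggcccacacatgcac
Atxn1: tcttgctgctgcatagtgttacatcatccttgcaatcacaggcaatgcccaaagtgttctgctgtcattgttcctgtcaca

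Members were short peaks with low scores for their list. Their width had a median of 163 bp (155 to 475 bp), and their score a median of 4.95 (2.06 to 63.66, with the middle 50% between 4.07 and 6.37). Thapsigargin-only peaks with no measured CpG were alike, with a median score of 4.95 and a median width of 159 bp. Peaks of the same list below 50% methylation had a median score of 6.03, and peaks listed in both states had 10.3. When the treated list was cut into 4 equal parts by score, members made up 60.01% of the lowest part, 53.4% and 44.4% of the middle parts, and 16.6% of the highest part. The DNA of members was close to even in base composition, with a median GC content of 49.7%. In 3377 members at least 50% of the 31-base stretches occurred once in the genome.

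The methylation of a member rested on few cytosines. The file lists each CpG cytosine by strand, and members held a median of 4 such entries. In 104 members there was 1 entry, in 960 there were 2, and 466 members had 10 or more. The members' methylation had a median of 77.8%, with the middle 50% between 67.0% and 85.8%, and 1500 members stood at 80% or more. At the threshold, 41 members had 50% to under 51%, with a median score of 5.69, and 44 peaks just outside had 49% to under 50%, with a median score of 5.68. Read depth per cytosine was not used here because the file gives none, so no error can be set on a percentage.

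A bZIP 8-mer was several times as frequent in members as beside them, but most members held none. The 4 C/EBP 8-mers searched were TTGCGCAA, TTGCACAA, TTGCGTAA and TTGCATAA, on both strands, and of these only TTGCGCAA is a full palindrome. Of the members, 155 (4.53%, interval 3.88% to 5.28%) held 1 or more of them. The flanking share, from 6 windows per member of the same length placed 2 to 4 kb away, was 1.25%, and 1.08% of all 163-bp windows of the genome held one. TGATGCAA was in 160 members (4.67%, 4.02% to 5.43%) against 0.438% of flanking windows and 0.501% of genome windows. With the related TGACGCAA added, 327 members (9.55%) held at least 1 of these 6 bZIP 8-mers, against 1.74% of flanking windows.

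By the ratio of shares, the palindrome TTGCGCAA stood furthest above its flanks among the features searched, against a flanking count of few windows, while by the difference in share TGATGCAA was further above than it. TTGCGCAA was in 39 members (1.14%), in 4 of 20529 flanking windows (0.0195%) and in 0.0130% of genome windows. TTGCGTAA was in 27 members (0.789%) against 0.0438% of flanking windows. TTGCACAA, which holds no CpG, was in 67 members (1.957%) against 0.609%. TTGCATAA was in 23 members (0.672%), and its interval of 0.448% to 1.01% includes its flanking share of 0.575%.

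The other bZIP sites were less far above the surrounding DNA. The AP-1 site TGANTCA, where N is any base and FOS and JUN dimers bind, was in 219 members (6.40%, 5.62% to 7.27%) against 5.45% of flanking windows. TGACGTCA was in 10 members (0.292%, 0.159% to 0.537%) against 0.141% of flanking and 0.0867% of genome windows. The intervals of TGANTCA and TGACGTCA lie above their flanking shares. CGATGCAA was in 6 members (0.175%, 0.0803% to 0.382%) against 0.122% of flanking windows and 0.157% of genome windows, and the interval includes both. A match of letters is a description and no evidence that the factor was bound at that site.

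Members and low-methylation thapsigargin-only peaks held C/EBP palindromes at shares of 4.53% and 4.84%, a difference of -0.31 points (Newcombe 95% interval -1.80 to 0.99) that includes 0. They differed in the composite site, which 4.67% of members and 11.4% of low-methylation peaks held (-6.70 points, -8.70 to -4.88), and in the AP-1 site, 6.40% against 15.8% (-9.41 points, -11.7 to -7.30). TTGCGCAA was more frequent in members, 1.14% against 0.403% (0.74 points, 0.12 to 1.21). A CpG inside a site belongs to the peak whose methylation was averaged, so a comparison of sites with a CpG between sets cut by methylation is not independent of the cut. Peaks listed in both states held C/EBP palindromes far more often, at 40.04% (-35.5 points, -38.1 to -33.0), and AP-1 sites at 21.3%.

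**Figure D1:**
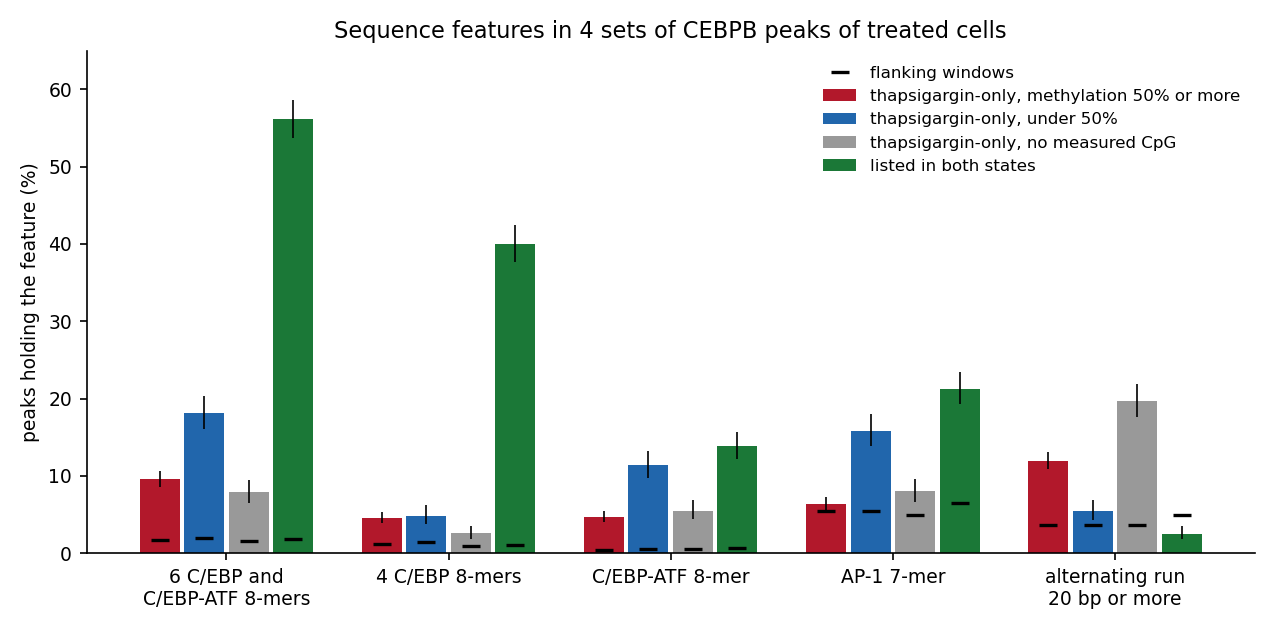
Share of peaks that hold each feature, in percent, for members (red), low-methylation thapsigargin-only peaks (blue), thapsigargin-only peaks with no measured CpG (grey) and peaks listed in both states (green), with Wilson 95% intervals. Black dashes are the shares in flanking windows. The red bars for the bZIP 8-mers (9.55%) and alternating runs (11.9%) stand above their dashes (1.74% and 3.68%), and the green bar for the bZIP 8-mers reaches 56.2%.

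The share of members with a bZIP 8-mer depended on the score. With members cut into 10 equal groups by score, it was 4.66% in the lowest group and 32.4% (27.6% to 37.5%) in the highest, whose scores were 8 or more, and it passed 12.3% in no other group. TGATGCAA alone was in 1.46% of the lowest group and 18.4% of the highest. The sets differ in score, so they were also set side by side within the highest of the 4 parts of the whole treated list. There, 326 members, 335 low-methylation peaks and 984 peaks of both states held TGATGCAA at shares whose intervals overlap: 18.1% (14.3% to 22.6%) of members, 67 of the 335 low-methylation peaks (16.1% to 24.6%) and 16.8% (14.6% to 19.2%) of peaks of both states. C/EBP 8-mers were in 13.5% (44 of 326) of those members, in 4.48% of the low-methylation peaks and in 43.3% of the peaks of both states. TTGCGCAA was in 4.60%, 0.896% and 11.7% of them. In the middle parts, members held TGATGCAA less often than low-methylation peaks: 3.24% (2.33% to 4.50%) against 8.95% (6.26% to 12.6%) in the second part, and 5.39% (4.08% to 7.09%) against 10.2% (7.48% to 13.8%) in the third. In the lowest part the shares were 1.698% (1.10% to 2.61%) and 4.17% (2.28% to 7.50%), with intervals that overlap.

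Among the 10 members with the highest scores and 4 or more CpG entries, 5 held TGATGCAA, 1 held TTGCACAA and 4 held none of the bZIP 8-mers. Their scores ran from 25.6 to 63.66, their methylation from 57.2% to 76.6%, and the flanks 1 to 2 kb away were more methylated than the peak in 8 of the 10. None lay near a protein-coding start, the distances being 20.6 to 582 kb. The member with the highest score was intergenic, at chr15:62401037-62401453, with 59.9% methylation over 14 entries against 89.5% in its flanks, and its nearest protein-coding start was that of Myc, a growth-promoting transcription factor, 582 kb away. The second, in an intron of Atxn1, scored 60.49 with 73.4% in the peak and 89.4% in the flanks. Others of the 10 lay in introns of Fbxl7, a ubiquitin ligase subunit, and Pappa, a protease of insulin-like growth factor binding proteins.

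**Figure D2:**
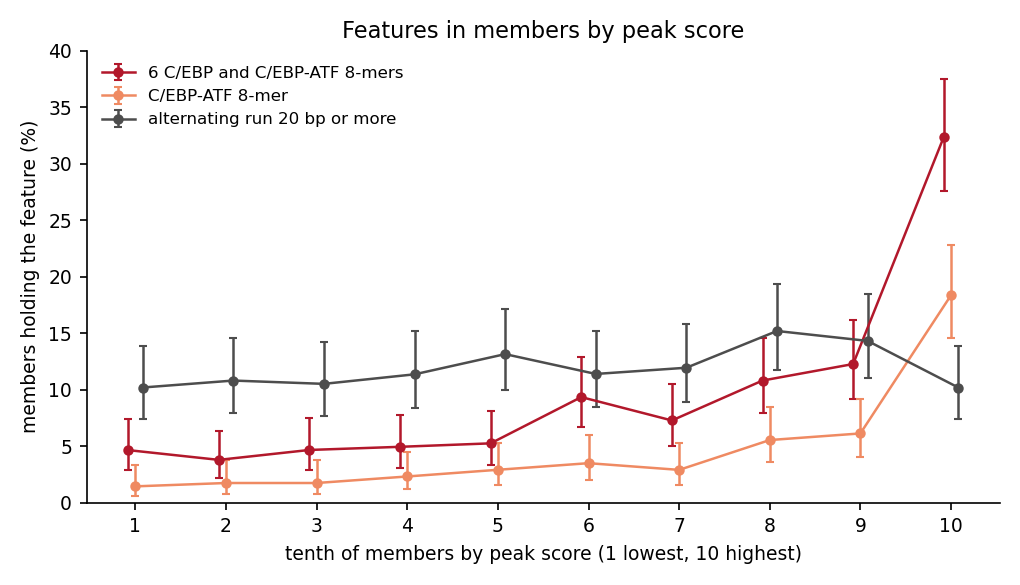
Share of members that hold a bZIP 8-mer (red), TGATGCAA (orange) or an alternating run (grey), in percent, in 10 equal groups of members by peak score from lowest to highest, with Wilson 95% intervals. The red line stands at 4.66% in the lowest group and 32.4% in the highest, while the grey line stays between 10.2% and 15.2%.

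The CpG inside the bZIP sites was itself methylated in nearly all members that had one. In all 39 members with TTGCGCAA the CpG in the site stood at 72% to 98%, with a median of 89.5%, and the other CpG entries of those peaks had a median of 78%. In the 27 members with TTGCGTAA the CpG of the site stood at 61.5% to 99%, and in the 17 with TGACGCAA at 56% to 100%. The CpG of TGACGTCA reached 50% in 9 of 10 members and that of CGATGCAA in 5 of 6. The 3 TTGCGCAA members shown above had 77%, 92% and 93.5% at the site. In the 140 peaks of both states with TTGCGCAA, the site's median was 42.2%, and 66 sites reached 50%. Over the whole genome such sites were also mostly methylated: cytosines in TTGCGCAA had a median of 88%, and 87.5% of them stood at 50% or more, as did 92.4% in TTGCGTAA, 87.9% in TGACGCAA, 74.2% in TGACGTCA and 85.4% in CGATGCAA. Since the rule chose peaks with high mean methylation, a high value at a site in members is in part set by the choice.

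Seen from the genome, few methylated sites of any kind were in members. Of 1771 TTGCGCAA sites at 50% or more, 39 were in members (22.0 per 1000), 66 in peaks of both states, and 184 in the untreated list. Of 281 TTGCGCAA sites under 50%, none could be in members except through methylated neighbours, and 0 were, while 74 were in peaks of both states (263 per 1000). Methylated TTGCGTAA sites numbered 4832, with 27 in members (5.59 per 1000). Methylated TGACGCAA sites gave 3.23 per 1000, TGACGTCA 0.961 per 1000 (9 of 9370) and CGATGCAA 0.359 per 1000 (5 of 13943). TGATGCAA has no CpG, so its surroundings were used: of 43967 sites with 50% or more in the 200 bp around them, 150 were in members (3.41 per 1000). These rates are conditioned on the rule, which removed peaks that overlapped the untreated CEBPB or the ATF4 list.

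Apart from bZIP sites, the sequences ranked highest in members were alternating purine and pyrimidine runs. All 32896 8-mers, with a sequence and its complement counted as 1, were ranked by the member share minus the flanking share. This difference was divided by the square root of the flanking share plus a small constant. GCACACAC came first, in 408 members against 2.18% of flanking windows, and CACATGCA second, in 359 members. On this scale TGATGCAA ranked 6 and TTGCGCAA, furthest above its flanks by ratio, 12. Runs were then defined, after this ranking was seen, as stretches of 20 bp or more in which purines and pyrimidines alternate. They were in 408 members (11.9%, 10.9% to 13.0%) against 3.68% of flanking and 3.16% of genome windows. The equal counts, 408, are of different features. Without members holding a run, TGATGCAA was first, in 150 of 3016 members, and TTGCGCAA second, in 36. Without the bZIP 8-mers as well, CAGCACAG led, in 128 of 2706 members (4.73%) against 1.04% of flanking windows.

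The longest run of these 408 members had a median of 34 bp and reached 153 bp. It was an unbroken CA repeat in 22 of them, held TGCA in 274 and held CG in 205. The CpGs within the runs had a median methylation of 89.2% over the 195 runs that had a value. These CpGs were among those averaged by the rule, so the value is in part set by the choice. A comparison of runs with a CG between sets cut by methylation is likewise not independent of the cut. Runs were in 5.48% of low-methylation thapsigargin-only peaks (members 6.43 points higher, 4.68 to 8.03) and in 2.54% of peaks listed in both states, below that set's flanking share of 4.88%. They were in 19.7% of thapsigargin-only peaks with no measured CpG, and in 19.3% of the 1197 methylated ATF4 peaks that overlapped no CEBPB peak, which came from another antibody. They were in 4.39% of the 1982 untreated-only methylated CEBPB peaks. Members with a run and no bZIP 8-mer had a median score of 5.02, close to the 4.88 of members with neither feature and below the 6.62 of members with only a bZIP 8-mer. Whether such sequence is recovered without CEBPB was not tested.

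Of all members, 310 held a bZIP 8-mer only, 391 a run only, 17 both, and 2706 (79.0%) neither. Members with a bZIP 8-mer only had a median methylation of 72.2%, those with a run only 85.5% and those with neither 77.5%.

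Both kinds of feature were most frequent near the middle of the peaks, with runs spread more widely than the 8-mers. In bins of 20 bp around the member centre, TGATGCAA reached 0.876% of members in the bin centred 10 bp from the middle and averaged 0.0613% beyond 300 bp. C/EBP 8-mers reached 0.759% and averaged 0.130% beyond 300 bp, and runs reached 2.95% and averaged 0.626%. In the bins centred 90 bp to either side, runs were still in 1.84% and 2.07% of members, and TGATGCAA in 0.234% and 0.0584%. TGANTCA averaged 0.808% within 60 bp and 0.644% beyond 300 bp, and its highest bin, 1.11%, lay 130 bp from the middle.

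**Figure D3:**
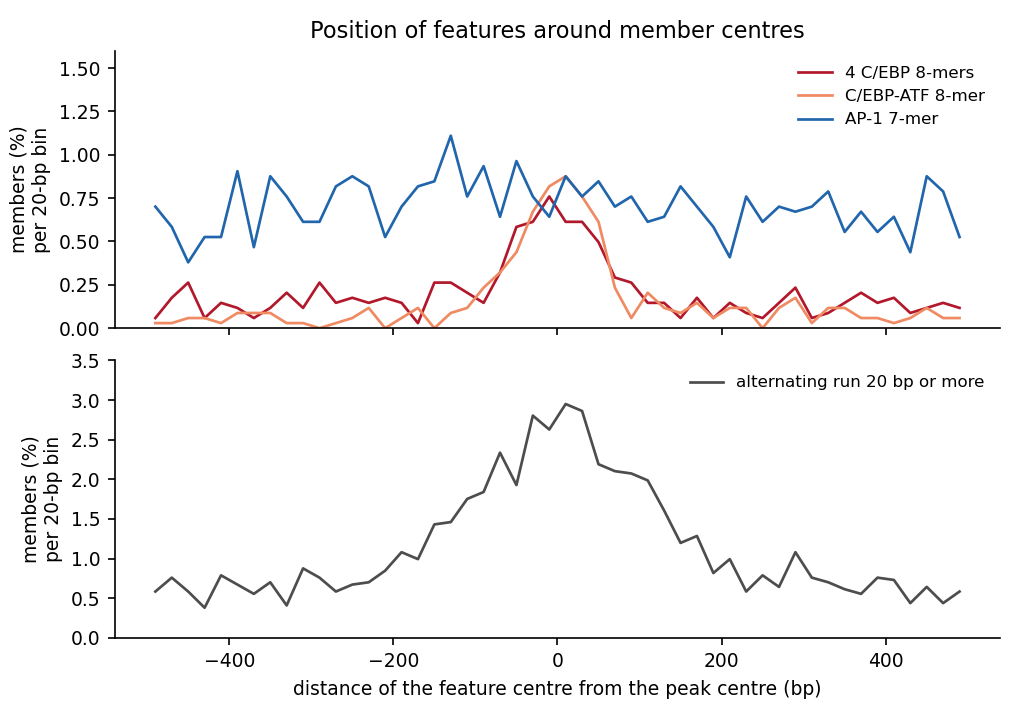
Share of members, in percent, with the centre of a feature in each 20-bp bin, against distance from the peak centre in bp. Above are C/EBP palindromes (red), TGATGCAA (orange) and the AP-1 site (blue), and below are alternating runs (grey). The red, orange and grey lines are highest within 60 bp of the centre, where runs reach 2.95%, and the blue line has no peak there.

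The DNA around members was methylated as well. The members' own median was 77.8% and that of the DNA 1 to 2 kb away 73.8%, with a median difference of flank minus peak of -4.25 points (order-statistic 95% interval -4.76 to -3.71, 3423 members). The peak value was chosen to be high, so the sign of this difference is in part set by the rule, but the flank was not used by it: 94.3% of members had flanks of 50% or more. Low-methylation thapsigargin-only peaks had flanks of 70.4% around a median of 29.2%, and peaks listed in both states 75.1% around 22.0%. Untreated-only CEBPB peaks chosen by the same threshold had 76.3% around 62.2%, with a flank 11.4 points higher (10.4 to 12.3). Among members, those with a bZIP 8-mer had a median difference of 0.25 points (-1.24 to 2.93), those with neither feature -4.03 points (-4.53 to -3.39) and those with a run -10.2 points (-12.3 to -8.08).

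**Figure D4:**
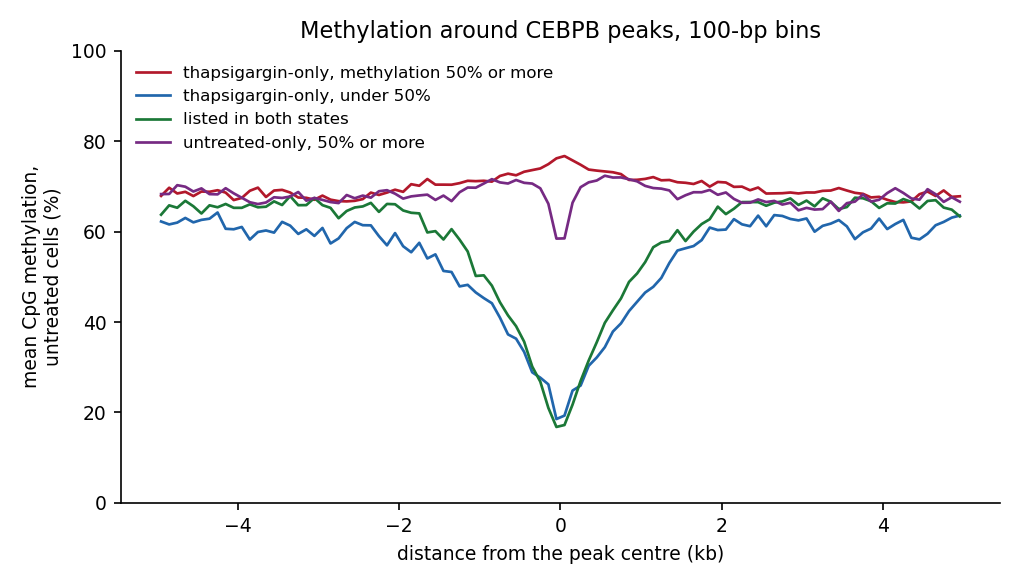
Mean CpG methylation of untreated cells in percent, in 100-bp bins to 5 kb on either side of the peak centre, for members (red), low-methylation thapsigargin-only peaks (blue), peaks listed in both states (green) and untreated-only CEBPB peaks at 50% or more (purple). The red line is at 76.2% and 76.7% in the bins beside the centre, while the purple line dips to 58.4% and the green line to 16.8%.

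Most members lay away from gene starts, and members were not the only set to do so. Those with any base within 1 kb of an annotated start numbered 174 (5.08%, 4.40% to 5.87%), against 18.2% of low-methylation thapsigargin-only peaks (-13.1 points, -15.5 to -10.9) and 17.97% of peaks of both states (-12.9 points). The share was close to that of members in untreated-only methylated CEBPB peaks, 99 of 1982 (4.12% to 6.04%). Thapsigargin-only peaks with no measured CpG had 3.64% (members 1.44 points higher, 0.087 to 2.63). The share was 13.7% in methylated ATF4 peaks that overlapped no CEBPB peak and 35.6% in the 360 treated peaks that overlapped an ATF4 peak. No share of genome windows is given for this. Introns held 1408 members (41.1%), intergenic DNA 1672 (48.8%) and coding exons 111 (3.24%). The median distance to a protein-coding start was 38.4 kb for members and 24.5 kb for low-methylation peaks. As background, CpG-rich gene starts are generally unmethylated in mammals, so this comparison is not independent of the methylation rule.

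Over the chromosomes, autosomes held 1.10 to 1.56 members per Mb and the X chromosome 0.450 (75 members). The whole treated list was sparse on X too, at 1.15 peaks per Mb against 3.23 on chromosome 1. The median gap was 125 kb to an untreated CEBPB peak and 93.3 kb to an ATF4 peak, lists from which the rule had removed overlaps, and 207 (6.05%) lay within 10 kb of an untreated CEBPB peak. The first 3.2 Mb of chromosome 11 held 10 of its 172 members, between 3027009 and 3085543, around Sfi1 and the pseudogene Pisd-ps1. This stretch was singled out after its values were seen.

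On the deposited scale, RNA of genes near members changed about as it did in all expressed genes. A start within 10 kb of a member was found for 541 genes, and 321 of these were expressed at 1 FPKM or more in at least 1 of the libraries. Of these, 23 (7.17%, 4.82% to 10.5%) were higher after thapsigargin by 1 or more on the log2(FPKM + 1) scale, where 5.92% of all 11890 expressed genes were. By the same measure 77 (23.99%, 19.6% to 28.9%) were lower, where 28.2% of all expressed genes were. The median log2 change was -0.51 (-0.61 to -0.38) near members and -0.52 over all expressed genes. With the change centred on genes at 5 FPKM or more in both libraries, whose median was -0.40, 11.2% (8.21% to 15.1%) of the genes near members were higher and 9.66% (6.89% to 13.4%) lower, against 10.99% and 15.6% of all expressed genes. Near peaks of both states, 11.6% (8.97% to 14.99%) of 438 genes were higher without centring. With a bZIP 8-mer in the member, 4 of 35 genes were higher and 11 lower. In these bulk libraries, fewer cells of a type and less RNA per cell cannot be told apart.

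**Figure D5:**
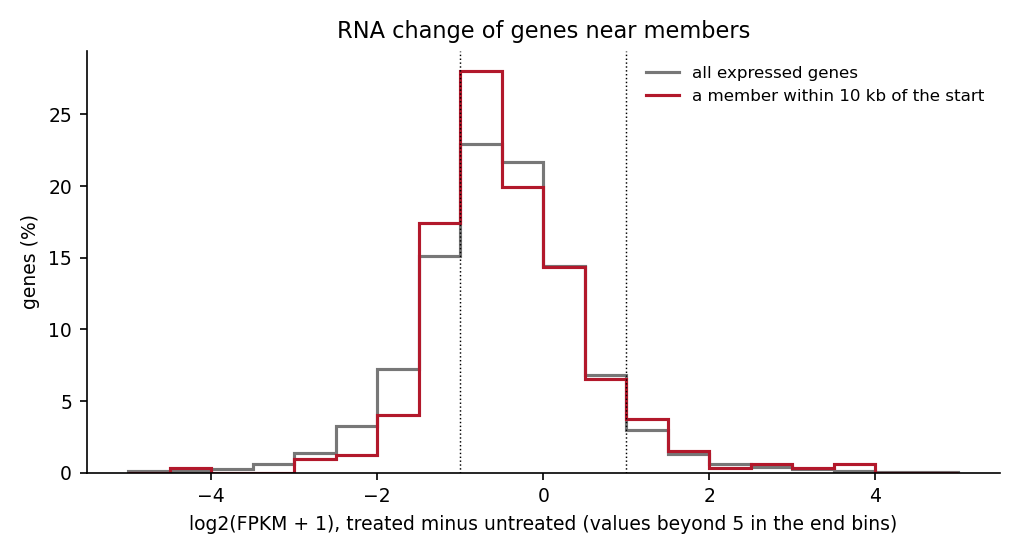
Share of genes, in percent, in bins of 0.5 of the change in log2(FPKM + 1), treated minus untreated, for all 11890 expressed genes (grey) and for the 321 with a member within 10 kb of the start (red). Dotted lines mark changes of 1 in either direction. The outlines overlap, with medians of -0.52 and -0.51.

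Several genes of the ER stress response had a member within 10 kb, and none of the counts that follow was tested. Over all 21428 matched genes, 2.52% had one. Of 28 ATF4 and CHOP targets, 3 had one, of which 2 were higher after thapsigargin, and of 24 ER chaperone and ER-associated degradation genes 2 had one, of which 1 was higher. Of 25 cytokine, chemokine and NF-kB genes 1 had one, as did 1 of 22 C/EBP, ATF and PAR bZIP genes. None of 27 fibroblast matrix genes and none of 22 immediate early genes had one. The lists themselves changed whether or not a member lay nearby: 14 of the 28 ATF4 and CHOP targets and 14 of the 24 ER genes were higher, while 19 of the 27 matrix genes were lower, beside 5.92% of all expressed genes higher and 28.2% lower. Markers moved as well: 7 of 10 fibroblast markers (median log2 change -1.94), 5 of 5 keratinocyte and 4 of 4 melanocyte and Schwann cell markers were lower, and 0 of 5 macrophage markers were (median 0.11). Their part in these counts was not tested.

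The member in an intron of Sel1l, a subunit of the ER-associated degradation ligase, had a score of 18.29, 70.5% methylation over 6 entries and the TGATGCAA shown above, 3.44 kb downstream of the gene's start. Sel1l stood at 40.2 FPKM untreated and 69.8 FPKM treated, a log2 change of 0.78. The member 2.59 kb upstream of Ero1l, an oxidase that forms disulfide bonds in the ER, had a score of 16.89, 67% methylation over 2 entries and TGATGCAA. Ero1l stood at 14.6 and 12.0 FPKM, a log2 change of -0.27, and Psmc6, a proteasome subunit whose start lies 8.45 kb from the same member, at 61.9 and 12.5 FPKM. A peak listed in both states lay 4.06 kb from the Psmc6 start and 6.996 kb from the Ero1l start. On the deposited scale, the genes beside these members of high score thus did not share a direction. The median over all expressed genes on that scale was -0.52, below the change of Ero1l.

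Jagn1, a protein of the early secretory pathway, had a member 1.81 kb downstream of its start with TGATGCAA and a run of 27 bp. It stood at 24.3 FPKM untreated and 68.5 FPKM treated. Tbc1d1, a regulator of glucose transporter traffic, had a member 5.89 kb upstream with TTGCACAA, a score of 8.42 and 81% methylation over 2 entries, and stood at 5.83 and 17.0 FPKM. These were the 2 genes with a bZIP 8-mer in the member among the 15 largest increases. That ranking left out gene models named by number or clone, ribosomal protein genes and small RNAs. Of all members, 9.55% held a bZIP 8-mer.

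The largest increases near members otherwise came beside members with neither feature. Hspa5, which encodes the ER chaperone BiP, went from 354 to 4978 FPKM, a log2 change of 3.81. Its member, 6.91 kb upstream in an intron of Gapvd1, had a score of 3.68, and a peak listed in both states lay 1.59 kb from the Hspa5 start. Ptgs2, the inducible cyclooxygenase, stood at 6.53 and 102 FPKM with a member of score 9.19 in a transcribed untranslated part of the gene, and a peak listed in both states lay 0.014 kb from its start. Nfil3, a bZIP repressor, stood at 24.2 and 203 FPKM, with a member 6.63 kb upstream and a peak of both states 4.04 kb from the start. For these 3 genes another CEBPB peak was nearer to the start than the member.

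Ppp1r15a, the phosphatase subunit that reverses the translation block of the stress response, stood at 28.6 and 176 FPKM. Its nearest peak of both states was 192 kb away. The member, 2.72 kb downstream of the gene's start, lay 0.217 kb from another annotated start of Ppp1r15a. That member had a score of 7.64 and 70.5% methylation, with 17.8% in its flanks. Ddit4, an inhibitor of mTOR signalling, stood at 22.4 and 73.0 FPKM with a member of 50.9% methylation, just inside the threshold, 7.97 kb downstream. Procr, the endothelial protein C receptor, stood at 2.02 and 19.5 FPKM, and Isg15, an interferon-induced ubiquitin-like protein, at 22.6 and 116 FPKM. Agrn shares the member of Isg15 and stood at 27.9 and 5.23 FPKM, so 1 member lay beside a higher and a lower gene. The other increases ranged from Pisd-ps1 (log2 change 1.86) to Cd72 (1.302), with Ptger2, Il23a, Dnttip2 and Zfp202 between them. Pisd-ps1 and Il23a stood near or at 0 in untreated cells.

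Among decreases, Mrps18c, a mitochondrial ribosome subunit, stood at 30.4 and 0.707 FPKM, a log2 change of -4.20, with a member of 89.6% methylation 9.62 kb from its start. Serpine2, a secreted protease inhibitor, stood at 97.1 and 17.5 FPKM with a member 2.24 kb upstream. Kdm1a, a histone demethylase, stood at 30.4 and 7.15 FPKM. The other 7 of the 10 largest decreases, ranked with the same genes left out, had log2 changes from -2.76 to -1.91. They were Odz3, Uchl1, Pds5a, Psmc6, Agrn, Kcna1 and Cdh13. Of the 10 members beside the named decreases only the one shared by Psmc6 and Ero1l held a bZIP 8-mer, where 9.55% of all members did.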

How the data were processed

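The submitters' processing notes name mm9 as the build, CASAVA 1.8.2 with Bowtie for RNA reads, CASAVA 1.7 with BWA and SAMtools for immunoprecipitation, and CASAVA 1.8 with Novoalign for bisulfite reads. How peaks were called, against which control, and which program gave FPKM were not given in the sources used. The deposited tables hold FPKM per gene entry, a score per peak called per library, and a percent of methylated reads per CpG cytosine without coverage, with both bisulfite libraries pooled. Methylation entries marked heterozygous (83035) were left out.

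Features were searched on both strands of the NCBIM37 reference, and genes came from GENCODE vM1, which matched 21428 of 22982 entries with 1 symbol. Shares have Wilson, differences Newcombe and medians order-statistic 95% intervals. RNA change is treated minus untreated log2(FPKM + 1), a scale on which low genes change less than their ratio. Named peaks were the 10 highest scores with 4 or more CpG entries, the highest near a start, the 3 highest with each of TTGCGCAA, TGATGCAA, TGACGTCA and CGATGCAA, and the 3 nearest the threshold on either side; named genes were the nearest to those peaks, the 15 largest increases and 10 largest decreases within 10 kb of a member, and members of the fixed lists; not all are described. Gene models named by number or clone, ribosomal protein genes and small RNAs were left out before increases and decreases were ranked. Members and lists were chosen with earlier results of these data known, and runs were added after the 8-mers were ranked. Python 3.11.15, pandas 2.3.3 and pysam 0.24.0 were used, and the functions were tested on simulated data.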

Additional observations from a re-analysis of the deposited data

How the results depend on the processing

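Of 97 recomputed values, 73 stayed within the interval of the reported value (counts within 1.5 times), and 24 moved. The C/EBP difference from low-methylation peaks changed sign, with 0 inside each interval: 1.92 points (-0.46 to 4.11) in the upper part of scores (the median of the treated list or more), 0.48 (-1.39 to 2.06) with at least 4 CpG entries and 0.068 (-1.45 to 1.42) without members holding a run. Centring turned the split of nearby genes from 7.17% higher and 23.99% lower to 11.2% and 9.66%. Members numbered 1210 in that upper part, 1500 at a threshold of 80% and 2250 with at least 4 CpG entries. In the upper part of scores C/EBP 8-mers were in 7.44% and TGATGCAA in 8.76% of members. At 80% the shares were 3.73% for C/EBP 8-mers, 2.47% for TGATGCAA and 16.9% for runs. The flank minus peak difference was then -10.6 points, and 4.79% of nearby genes were higher. With at least 4 CpG entries runs were in 9.73% of members and 19.6% of nearby genes were lower. Without members holding a run the flank difference was -3.56 points, and runs of 30 bp or more were in 7.51%. Within 5 kb of a start lay 15.5% of members. With a pseudocount of 0.1 the median RNA change was -0.63 and 34.3% of nearby genes were lower, against -0.62 and 35.4% over all expressed genes. Without the filter on low values the median was -0.037, with 4.25% higher and 14.2% lower. Shares over all genes were not computed without that filter. Centring gave a median of -0.11, against -0.12 over all expressed genes. The cause of these shifts was not tested. Some settings left fewer peaks or genes, while centring and the pseudocount kept the same genes and dropping the filter added some.

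The alternative without the Y chromosome, unplaced sequence and lower-case reference was not run, because no member lay there and the reference used is all in capitals. No paired analysis was possible because each condition has 1 library and the 2 bisulfite libraries are pooled in the file, and no library was left out. Without coverage, a member with 1 or 2 CpG entries has a methylation value of unknown precision.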
